A study of Mus musculus with 7 samples.

Results

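Arg1-positive C1q-low mononuclear cells of the mouse heart are Lyz2-positive cells that carry transcripts of Arg1, the cytosolic arginase, and few transcripts of the complement C1q chains that mark most tissue macrophages. They were chosen by their unique molecular identifier (UMI) counts, 1 UMI standing for 1 captured transcript. A member had at least 2 Arg1 UMIs, at least 5 Lyz2 UMIs, fewer than 10 UMIs summed over C1qa, C1qb and C1qc, less than 1% of its UMIs from the neutrophil genes S100a8 and S100a9, at most 2 UMIs of Prg4 and Alox15 together and at most 5 UMIs of Col1a1. Arg1 (ENSMUSG00000019987) lies on the minus strand of chromosome 10 at 24915221 to 24927484 in GRCm38. Of 40158 cells kept in the series, 475 met all of these limits. They were set against 2652 cells that met the same limits but held no Arg1 UMI, called Arg1-zero cells below. Cells that met the limits whatever their Arg1 count are called gated cells. Since the rule read these counts, the levels of its 10 genes are a description.

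The 7 libraries came from digested mouse hearts and fell into 6 groups. Mice labelled MerTK KO gave 1 library labelled P1 with myocardial infarction (MI) and 1 labelled P1 with a sham operation. Mice of the inbred strain C57BL6/J, the wild type (WT), gave 2 libraries labelled P1 with MI and 1 labelled P1 with sham. They also gave 1 library labelled 8 weeks with MI and 1 labelled 8 weeks with sham. P1 and 8 weeks are the ages in the labels. The product of Mertk is a receptor with which macrophages take up apoptotic cells, and the series addresses this uptake and arachidonic acid metabolism in cardiac repair. Dead cells were removed and CD45-positive leukocytes enriched before loading, so shares of cells describe what was loaded and not the tissue. The labels do not give the time between surgery and sampling, so these ages may not be those at sampling. They also do not give the number of hearts in a library or the part of Mertk that was deleted.

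Arginase 1 splits arginine into urea and ornithine, the precursor of polyamines and of the proline used in collagen. Nitric oxide synthase 2, encoded by Nos2, draws on the same arginine, so the enzymes compete for it in macrophages. Monocytes that enter injured tissue can switch on Arg1 under interleukin 4 and 13, hypoxia or lactate before they acquire the C1q genes of settled macrophages. Prg4 and Alox15, which the rule limits, mark macrophages of the body cavities in mice.

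Total UMIs were lowest in WT 8 week MI, at 7707724, and highest, at 130847843, in the second WT P1 MI library. Gated cells had a median of 1608 UMIs in WT 8 week MI and of up to 11262.5 UMIs in the first WT P1 MI library. Of the barcodes kept, 129 occurred in more than 1 library, 3 member barcodes were among them, and none was a member in both libraries. The file headers name Cell Ranger 6.1.0 for the second WT P1 MI and the WT 8 week sham libraries and 4.0.0 for the others, so this version and MI cannot be told apart at 8 weeks. Mertk, counted from tags at the 3' end of its transcripts, was at 18.8 CPM (the usual depth-scaled count, the UMIs of a gene over all UMIs of the cell set) in gated cells of MerTK KO P1 MI and 14.7 CPM in those of MerTK KO P1 sham. It was at 8.92 and 6.73 CPM in the WT P1 MI libraries, 1.73 CPM in WT P1 sham, 20.8 CPM in WT 8 week MI and 2.93 CPM in WT 8 week sham. These tags check the genotype labels only if the deletion covers that end of the gene.

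Members were most frequent in the 2 libraries MerTK KO P1 MI and WT 8 week MI. The MerTK KO hearts gave 195 after MI and 11 after sham, the P1 WT hearts 3 and 19 after MI and 0 after sham, and the adult WT hearts 198 after MI and 49 after sham. As shares of gated cells, these were 21.4% (exact 95% interval 18.8 to 24.2) in MerTK KO P1 MI against 3.59% (1.81 to 6.34) in MerTK KO P1 sham. The pair of WT P1 MI libraries had shares of 12.5% (2.66 to 32.4) and 4.79% (2.91 to 7.37), against 0 of 57 cells in WT P1 sham, which allows up to 5.26%. WT 8 week MI had 34.3% (30.4 to 38.3), against 4.84% (3.6 to 6.34) in WT 8 week sham. The intervals cover counting error only, and with 1 library in 5 of the 6 groups no difference between conditions was tested. The share in MerTK KO P1 MI lay above that of the second WT P1 MI library beyond counting error, whereas its interval overlapped that of the first, which held only 24 gated cells. Gated cells of MerTK KO P1 MI and MerTK KO P1 sham also differed in sex-linked transcripts, with Xist at 25.5 against 512 CPM and the Y-linked Ddx3y at 60.9 against 0 CPM. In the WT P1 MI libraries Xist was at 481 and 262 CPM and Ddx3y at 22.3 and 13.7 CPM. WT P1 sham had 97.1 CPM of Xist and 137 CPM of Ddx3y. The part of sex in these shares was not tested.

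**Figure D1:**
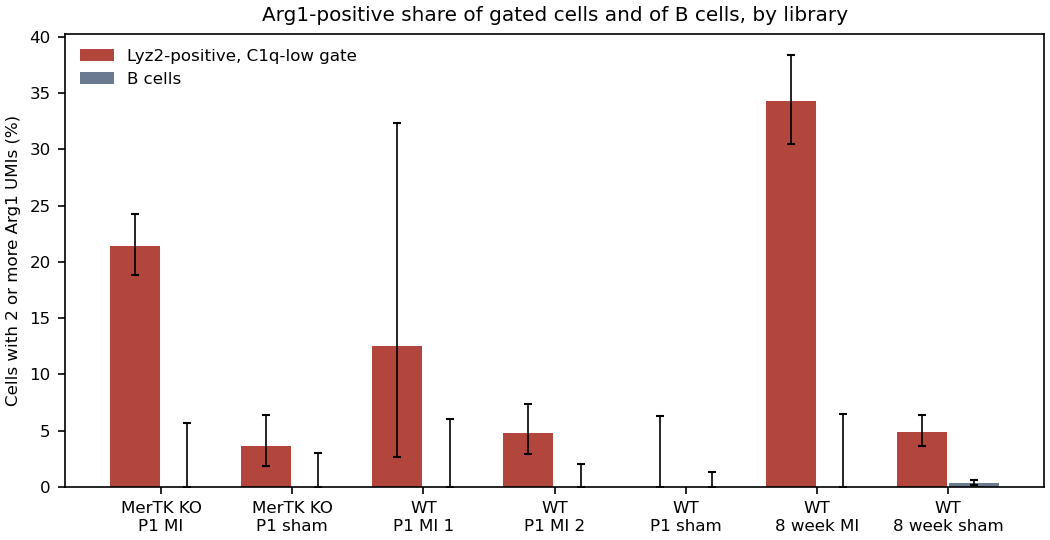
Percentage of cells with 2 or more Arg1 UMIs (vertical axis) in each of the 7 libraries, for gated cells (red) and B cells (grey). Lines are exact 95% intervals for counting error. The gated share is 21.4% in MerTK KO P1 MI and 34.3% in WT 8 week MI and at most 12.5% elsewhere, and the B cell share is at most 0.316%.

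B cells served as the background of Arg1. They held 2 or more UMIs of Cd79a and Ms4a1, none of Cd3d and Cd3e and at most 1 Lyz2 UMI. B cell barcodes with more Lyz2 were not counted, so this background may be too low. Of the B cells counted, 0 held 2 or more Arg1 UMIs in 6 of the libraries, which held 55 to 286 B cells each. In WT 8 week sham, 11 of 3478 (0.316%) did so. With at least 1 Arg1 UMI, the shares were 1.59% of 63 B cells against 26.7% of gated cells in MerTK KO P1 MI and 5.45% of 55 B cells against 44.4% of gated cells in WT 8 week MI. The WT 8 week sham library had 1.90% of B cells against 8.19% of gated cells. Median depths were 2199, 760 and 2720 UMIs per B cell and 6152, 1608 and 8286 UMIs per gated cell in these 3 libraries. T cells did not serve as background. Of them, 10 of 133 in MerTK KO P1 MI and 8 of 63 and 13 of 124 in the WT P1 MI libraries held 2 or more Arg1 UMIs. The split into B and T cells was made after the counts were seen. With both together, 2.28% of 5484 cells held at least 1 Arg1 UMI in WT 8 week sham and 11.7% of 197 did in MerTK KO P1 MI. In the second WT P1 MI library the share of gated cells was not above that background, at 6.30% against 7.42% of 310 T and B cells, and at 3.10% against 4.58% thinned to 1500 UMIs.

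The order of the MI and sham libraries at the same age and genotype was the same at equal depth. After each gated cell was thinned to 1500 UMIs, at least 1 Arg1 UMI remained in 19.2% of 858 cells of MerTK KO P1 MI, against 3.38% of 296 cells of MerTK KO P1 sham. It remained in 49.8% of 327 cells of WT 8 week MI and in 3.84% of 990 cells of WT 8 week sham. Thinning left out 53 and 10 gated cells of the MerTK KO libraries and 250 and 23 of the 8 week libraries. In the WT P1 libraries, 2 of 22 and 12 of 387 thinned cells after MI and 0 of 55 after sham held a UMI.

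Among members the Arg1 count varied widely. The median was 8 UMIs per cell in MerTK KO P1 MI, 9 in WT 8 week MI and 7 in WT 8 week sham, and the highest cells held 101, 40 and 80 UMIs. Summed over members, Arg1 was at 1832 CPM (1768 to 1899) in MerTK KO P1 MI, 5345 CPM (5125 to 5571) in WT 8 week MI and 1308 CPM (1214 to 1406) in WT 8 week sham. Just inside the limit, 24, 28 and 6 members of these libraries held exactly 2 Arg1 UMIs, while 48, 58 and 34 gated cells just outside it held 1. At the limit on C1q, 12, 21 and 9 members held 8 or 9 C1q UMIs, and 6, 25 and 2 Arg1-positive cells just outside held 10 or 11. That limit was not scaled to depth, and 68.2%, 21.2% and 26.5% of members held no C1q UMI. Mean C1qa, C1qb and C1qc levels were 117, 349 and 170 CPM in members. In Arg1-zero cells they were 103, 230 and 129 CPM. With the limits scaled to depth, the libraries held 185, 133 and 54 members in place of 195, 198 and 49. Members held more UMIs than Arg1-zero cells in each of these libraries, with medians of 7757 against 5691.5 in MerTK KO P1 MI, 1997.5 against 1413 in WT 8 week MI and 10857 against 8146 in WT 8 week sham.

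**Figure D2:**
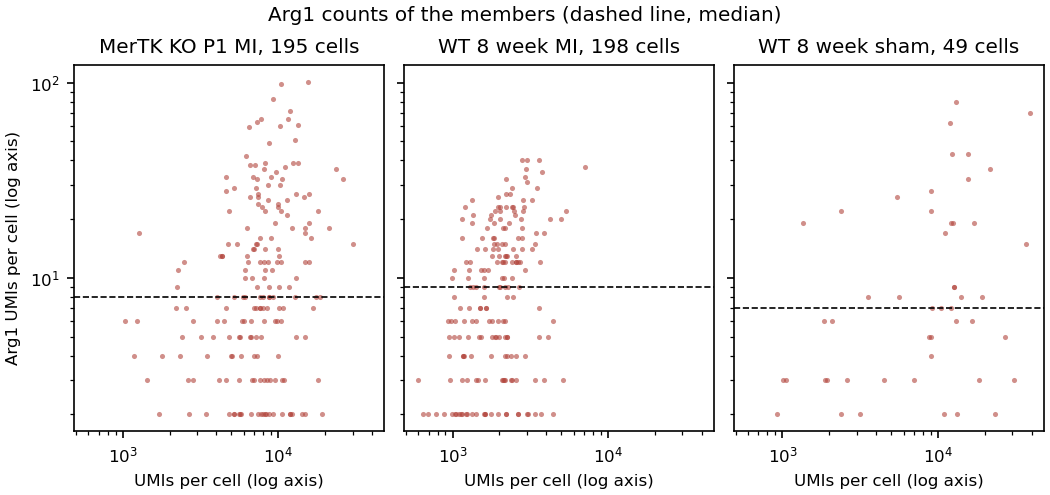
Arg1 UMIs against total UMIs per member (both log axes) in the 3 libraries with at least 20 members. Each point is 1 cell and the dashed line is the median, at 8, 9 and 7 Arg1 UMIs. Members of WT 8 week MI are the shallowest.

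Members held a minority of the Arg1 transcripts of every library. Of all Arg1 UMIs, members accounted for 23.9% after MI and 19.3% after sham in MerTK KO hearts, 0.579% and 15.1% in the WT P1 MI libraries, and 21.0% after MI and 1.99% after sham in WT hearts of 8 weeks. Cells that met every limit but the one on C1q held 28.3% in MerTK KO P1 MI, 62.7% in WT 8 week MI and 41.7% in WT 8 week sham, and numbered 200, 572 and 549. In MerTK KO P1 MI, 291 of the 723 cells with 2 or more Arg1 UMIs failed the limit on neutrophil genes. Of 1360 such cells in WT 8 week sham, 527 failed the limit on Prg4 and Alox15, genes of cavity macrophages. Cells that failed the Lyz2 limit differed by library. Of those in WT 8 week sham, 145 of 174 held Gata3 and 132 held Il1rl1, the transcription factor and the interleukin 33 receptor of group 2 innate lymphoid cells, and in WT P1 sham 15 and 14 of 17 did. Of the 46 in MerTK KO P1 MI, 7 held Gata3 and 4 held Il1rl1. For MerTK KO P1 sham these counts were 25 and 22 of 60, and WT 8 week MI had neither gene in any of its 14 cells. These genes were looked at after the counts were seen.

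Of the label's markers, Arg1 and Lyz2 are required by the rule, so their presence checks nothing. Lyz2, which encodes lysozyme, was at 17120, 20484 and 7210 CPM in members of MerTK KO P1 MI, WT 8 week MI and WT 8 week sham. Chil3, a chitinase-like secreted protein, is the label's only marker that the rule did not use, and it was lower in members than in Arg1-zero cells of each of these libraries. It was at 6.65 CPM in members against 7.48 CPM in Arg1-zero cells of MerTK KO P1 MI, at 1708 against 3418 CPM in WT 8 week MI and at 103 against 117 CPM in WT 8 week sham. Its log2 fold change was −0.60 ± 0.21 (standard error; adjusted p = 0.219 in edgeR's quasi-likelihood test) and was not called. After thinning to 1000 UMIs, Chil3 was found in 50.5% of members and 56.6% of Arg1-zero cells of WT 8 week MI. Its direction depended on the limits, at 1.29 on the log2 scale with at least 1 Arg1 UMI, 0.21 against depth-matched Arg1-zero cells and 0.0012 with limits scaled to depth. In the 19 members of the second WT P1 MI library Chil3 was at 48.1 against 8.69 CPM in Arg1-zero cells, and in the 11 of MerTK KO P1 sham at 172 against 322 CPM. Chil3 thus did not set members apart from Arg1-zero cells in the same way in every library, and the cells are named here by Arg1 and low C1q alone.

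Markers of other cell types were found in some members. At least 3 UMIs summed over 12 markers of lymphocytes, endothelium, fibroblasts, cardiomyocytes and red cells were found in 15 of 195 members (7.69%) and 4.94% of Arg1-zero cells of MerTK KO P1 MI. The same held for 1 of 198 members and 2.80% of Arg1-zero cells of WT 8 week MI, and for 17 of 49 members (34.7%) and 33.9% of Arg1-zero cells of WT 8 week sham. The 11 neutrophil markers outside the rule summed to 1188 against 1314 CPM in MerTK KO P1 MI. Their sums were 192 against 241 CPM in WT 8 week MI and 135 against 194 CPM in WT 8 week sham. The other 2 of the 13 markers, S100a8 and S100a9, were capped by the rule and left out of these sums. Over these libraries they had means of 796 and 427 CPM in members and 623 and 306 CPM in Arg1-zero cells. The 7 T and natural killer cell markers summed to 74.9 against 108, 31.1 against 56.9 and 518 against 543 CPM in these libraries. The 6 cardiomyocyte markers were higher in members of each library, with sums of 32.6 against 24.9 CPM in MerTK KO P1 MI, 26.4 against 3.79 CPM in WT 8 week MI and 184 against 14.7 CPM in WT 8 week sham. Of them, Myl2 alone passed the filter on low counts and was not called (1.58 ± 0.49, adjusted p = 0.164). The part of heart muscle RNA in the genes higher in members was not tested. The 6 mast cell and basophil markers summed to at most 16.2 CPM in members of these libraries, and none of them passed the filter on low counts.

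Members and Arg1-zero cells were compared in the 3 libraries that held at least 20 members, MerTK KO P1 MI, WT 8 week MI and WT 8 week sham, with UMIs summed per library and cell set and the library as a block in edgeR's quasi-likelihood test. Of 7322 genes tested, 103 (1.41%) were called at a Benjamini-Hochberg adjusted p below 0.05 and at least 2-fold. Members were higher in 61 (0.833%) and lower in 42 (0.574%). At an unadjusted p below 0.05 there were 1051. The 3 libraries come from different conditions and stand in for replicates, and the fit had 2 residual degrees of freedom. Over all genes tested, 36.5% differed in the same direction in all 3 libraries, whether called or not. The count fell to 28 without WT 8 week sham and to 33 without WT 8 week MI, was 315 without MerTK KO P1 MI, and was 12 when cells with 3 or more UMIs of other lineages' markers were left out. In that last setting 14 of the named genes lost their calls, among them Ltc4s, Ccl24, Saa3, Il1a, Fn1, Plac8, Ly6c2, H2-Ab1 and Cd74, whereas Slc7a2, Marco and Hpgd kept theirs. The direction of these genes was the same there, with log2 fold changes of 3.94 for Ltc4s, 3.24 for Ccl24, 2.89 for Saa3, 3.13 for Il1a and 2.93 for Fn1. Those of Plac8, Ly6c2, H2-Ab1 and Cd74, at −2.42, −2.13, −1.73 and −1.70, were farther from 0 than with all cells. The members of WT 8 week sham fell to 32 in that setting. The 2 cell sets also differed in depth, and 74 genes were called against Arg1-zero cells of matched depth, 54 of them among the 103.

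Among the genes called higher were 1 of 17 tested on the list of arginine, polyamines, nitric oxide and itaconate, 3 of 19 on the arachidonate list, 3 of 21 cytokines and chemokines and 5 of 26 genes of matrix and growth factors. Slc7a2, the cationic amino acid transporter that brings arginine into the cell (ENSMUSG00000031596, chromosome 8, 40862396 to 40922308, plus strand), was at 18.7 CPM in members against 0.499 CPM in Arg1-zero cells of MerTK KO P1 MI, 76.7 against 5.69 CPM in WT 8 week MI and 263 against 1.86 CPM in WT 8 week sham. Each of the 3 member values lay above each Arg1-zero value. The log2 fold change was 6.40 ± 0.43 (adjusted p = 6.93e-04), and 4.45 (adjusted p = 0.0170) without WT 8 week sham. A Slc7a2 UMI was held by 20 of 49 members and 13 of 930 Arg1-zero cells of WT 8 week sham. The other 16 tested genes of its list were not called. Odc1, which turns ornithine into the polyamine putrescine, changed by 0.28 ± 0.19 (adjusted p = 0.576) and Arg2, the mitochondrial arginase, by 0.18 ± 0.34 (adjusted p = 0.873).

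Nos2 did not pass the filter on low counts. Most of its UMIs in members came from the MerTK KO libraries. In MerTK KO P1 MI it had 216 UMIs in members and 102 in Arg1-zero cells, at 130.5 against 25.4 CPM. In MerTK KO P1 sham, outside the fit, it had 69 UMIs in 4 of 11 members and 25 in Arg1-zero cells, at 516 against 9.81 CPM, and 44.9% of the 69 were in 1 cell. Both cell sets of WT 8 week MI had 0 UMIs, and WT 8 week sham had 1 UMI in members and 9 in Arg1-zero cells. The WT P1 MI libraries had 0 in members and 0 and 14 in Arg1-zero cells. A Nos2 UMI was found in 53 of 195 members (27.2%) of MerTK KO P1 MI, so both arginine-consuming enzymes were counted in the same cells there. Thinned to 1000 UMIs, 7.18% of these members and 2.02% of Arg1-zero cells held one. Acod1, which makes itaconate, was at 346 against 181 CPM in MerTK KO P1 MI, 26.4 against 15.2 CPM in WT 8 week MI and 5.41 against 7.24 CPM in WT 8 week sham (log2 0.75 ± 0.27, adjusted p = 0.230).

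Marco, a class A scavenger receptor for bacteria and particles (ENSMUSG00000026390, chromosome 1, 120474538 to 120505024, minus strand), was at 1336 CPM in members against 56.6 CPM in Arg1-zero cells of MerTK KO P1 MI and 106 against 0.621 CPM in WT 8 week sham. Members of WT 8 week MI had 8 Marco UMIs, 6 of them in 1 cell, and Arg1-zero cells there had 0. The log2 fold change was 5.34 ± 0.45 (adjusted p = 0.00159). It was 4.66 without WT 8 week sham and 7.11 without MerTK KO P1 MI. Most of the Marco signal was thus in MerTK KO P1 MI, where 74 of 195 members and 38 of 668 Arg1-zero cells held a UMI. Fcna, the lectin ficolin A, showed the reverse by library, with 146 against 13.3 CPM in WT 8 week MI and 79.4 against 0.621 CPM in WT 8 week sham but 1 UMI against 2 in MerTK KO P1 MI. Its log2 fold change was 5.07 ± 0.69 (adjusted p = 0.0110, and 0.0841 without WT 8 week sham). Of 26 tested genes of apoptotic cell uptake, 2 rose and none fell, Marco and the cholesterol exporter Abca1 (1.35 ± 0.19, adjusted p = 0.0126).

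**Figure D3:**
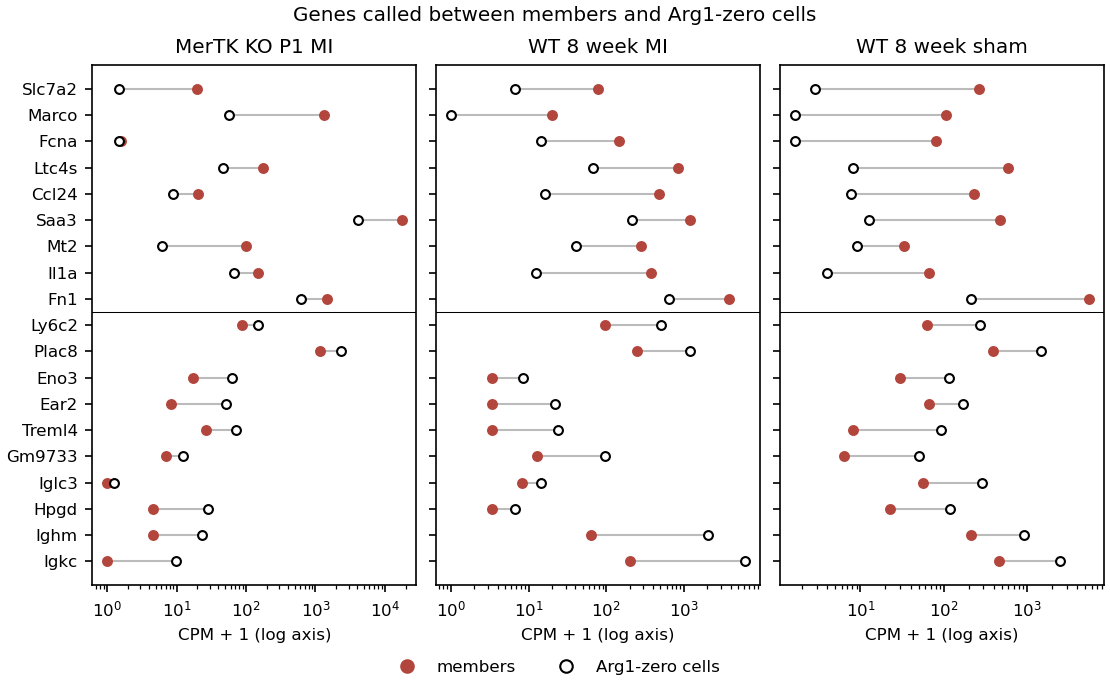
Levels of 19 genes in members (red) and Arg1-zero cells (open circles) in the 3 libraries compared, as CPM + 1 on log axes. The 9 genes above the line were called higher and the 10 below it lower. Fcna differs by little in MerTK KO P1 MI, at 1 UMI against 2, and by much in both 8 week libraries.

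Arachidonic acid is released from membranes and turned into prostaglandins and thromboxane by cyclooxygenases and into leukotrienes by the 5-lipoxygenase branch. Of 19 tested genes of this list, 3 rose and 1 fell, with a median log2 fold change of 0.14 beside −0.01 over all genes tested. Ltc4s, leukotriene C4 synthase, was at 174 against 45.4 CPM in MerTK KO P1 MI, 846 against 66.4 CPM in WT 8 week MI and 593 against 7.14 CPM in WT 8 week sham. All member values lay above all Arg1-zero values, by 3.90 ± 0.67 on the log2 scale (adjusted p = 0.0294, and 0.126 without WT 8 week MI). A UMI was found in 72 of 195, 93 of 198 and 28 of 49 members. Tbxas1, thromboxane A synthase, rose by 1.85 ± 0.21 (adjusted p = 0.00602) and Ptgs2, the inducible cyclooxygenase, by 1.20 ± 0.23 (adjusted p = 0.0431). Hpgd, which inactivates prostaglandins, fell by 2.64 on the log2 scale (standard error 0.28, adjusted p = 0.00480). It had 6, 1 and 12 UMIs in members and 109, 3 and 1141 in Arg1-zero cells of MerTK KO P1 MI, WT 8 week MI and WT 8 week sham, so the WT 8 week MI library added little to it.

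Chemokines and cytokines rose in part. Of 21 tested, 3 rose and none fell, with a median of 0.77. Cxcl1, which attracts neutrophils, was at 52.0 against 16.5 CPM in MerTK KO P1 MI, 1052 against 190 CPM in WT 8 week MI and 54.1 against 9.21 CPM in WT 8 week sham (log2 2.20 ± 0.21, adjusted p = 0.00255). Il6 rose by 2.03 ± 0.30 (adjusted p = 0.0164) on at most 34 UMIs in the members of a library. Il1a, the alarmin interleukin 1 alpha, was at 149 against 66.9 CPM, 376 against 11.4 CPM and 64.9 against 3.0 CPM in the same libraries (2.89 ± 0.58, adjusted p = 0.0465, and 0.217 without WT 8 week sham and 0.167 without WT 8 week MI). Il1b, at 5212 against 5174 CPM in MerTK KO P1 MI, 1926 against 1127 CPM in WT 8 week MI and 2152 against 1642 CPM in WT 8 week sham, was not called (0.35 ± 0.19, adjusted p = 0.435).

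Ccl24, an eosinophil attractant, and Saa3, an acute-phase serum amyloid protein, rested partly on single cells. Ccl24 was at 19.3 against 7.73 CPM in MerTK KO P1 MI, 472 against 15.2 CPM in WT 8 week MI and 229 against 6.72 CPM in WT 8 week sham (3.88 ± 0.58, adjusted p = 0.0164, 0.111 without WT 8 week sham and 0.0838 without WT 8 week MI). One member held 90.6% of its UMIs in WT 8 week sham, whereas 52 of 198 members carried it in WT 8 week MI. Saa3 was at 17443 against 4078 CPM in MerTK KO P1 MI, 1212 against 216 CPM in WT 8 week MI and 480 against 11.6 CPM in WT 8 week sham (3.19 ± 0.51, adjusted p = 0.0224, and 0.0902 without WT 8 week MI). One member held 66.2% of its UMIs in WT 8 week sham, and 185 of 195 members of MerTK KO P1 MI carried it. With the highest cell of each gene left out of each sum, Ccl24 was at 3.20 (adjusted p = 0.0247) and Saa3 at 2.86 (adjusted p = 0.00484) on the log2 scale, and 94 genes were called, 80 of them among the 103.

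Genes of the extracellular matrix and of growth factors had the highest median of the 14 lists, at 1.19, with 5 of 26 called higher and 1 called lower. Fn1, fibronectin, was at 1489 against 628 CPM in MerTK KO P1 MI, 3776 against 651 CPM in WT 8 week MI and 5572 against 211 CPM in WT 8 week sham (2.78 ± 0.51, adjusted p = 0.0374, and 0.167 without WT 8 week MI). It was found in 181 of 195, 180 of 198 and 46 of 49 members. Timp1, an inhibitor of metalloproteinases, rose by 2.71 ± 0.36 (adjusted p = 0.00984), Areg, the growth factor amphiregulin, by 1.57 ± 0.31 (adjusted p = 0.0465) and Tgm2, transglutaminase 2, by 1.55 ± 0.30 (adjusted p = 0.0453). Mmp12, macrophage elastase, fell by 1.51 on the log2 scale (standard error 0.30, adjusted p = 0.0465), with 57.2% of its Arg1-zero UMIs in WT 8 week sham in 1 cell.

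Genes of glycolysis and of the hypoxia response lay higher in members as groups, although few passed the test. All 16 tested glycolysis genes had a log2 fold change above 0, with a median of 0.72, and 13 of them were higher in all 3 libraries, as were 19.7% of all genes tested. The 2 called were Hk1, hexokinase 1 (1.41 ± 0.23, adjusted p = 0.0233), and the glucose transporter Slc2a1 (1.06 ± 0.21, adjusted p = 0.0465). All 17 tested hypoxia genes were above 0, with a median of 0.81, and 13 were higher in all 3 libraries. Bnip3, Egln3, Ero1l and Slc2a1 were called. Bnip3, a mitophagy receptor, was at 184 against 98.3 CPM in MerTK KO P1 MI, 290 against 83.5 CPM in WT 8 week MI and 21.6 against 8.69 CPM in WT 8 week sham (1.29 ± 0.21, adjusted p = 0.0249). Vegfa, the vascular growth factor, was at 158 against 92.6 CPM, 76.7 against 19.0 CPM and 79.4 against 8.28 CPM and narrowly missed the threshold (1.78 ± 0.38, adjusted p = 0.0564). The metallothioneins Mt2 (3.04 ± 0.39, adjusted p = 0.00912, and 0.0594 without WT 8 week MI) and Mt1 (1.15 ± 0.19, adjusted p = 0.0257), which bind zinc, rose among 24 tested genes of the stress list.

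**Figure D4:**
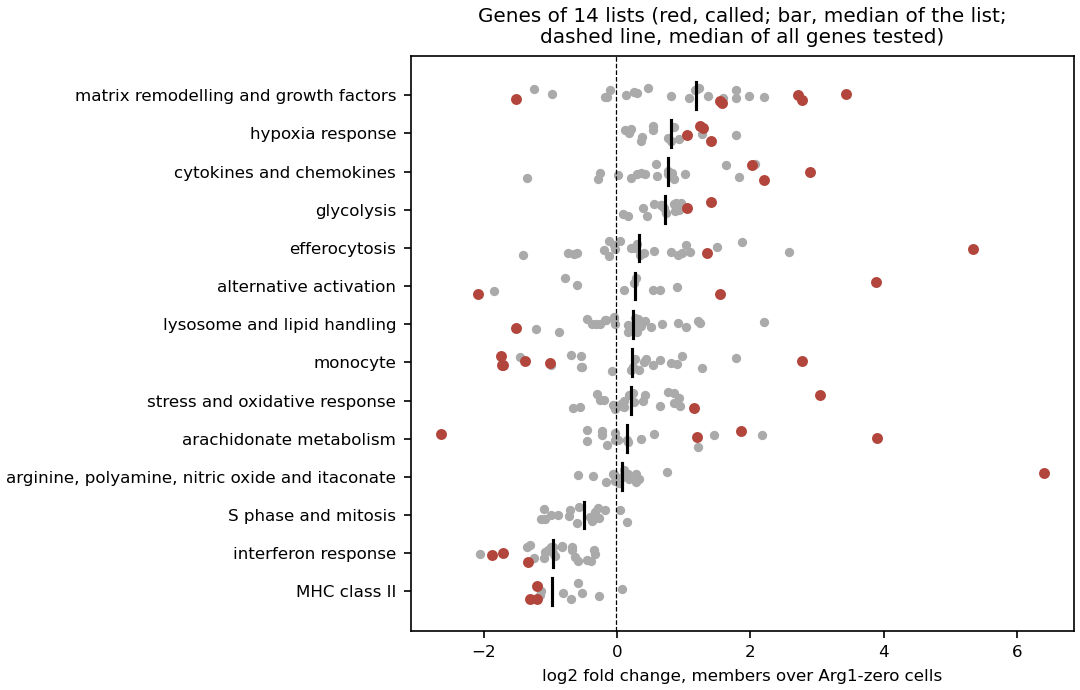
Log2 fold changes of members over Arg1-zero cells for the tested genes of 14 lists, with called genes in red, the median of each list as a bar and the median of all genes tested as a dashed line. Matrix, hypoxia, cytokine and glycolysis genes lie to the right, and interferon and MHC class II genes to the left.

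Genes lower in members included markers of both monocyte classes. Of 10 classical monocyte markers tested, 4 fell and none rose, and of 6 non-classical markers 3 fell and none rose. The wider list of 26 monocyte genes was mixed, with 5 fallen, 1 risen (Fn1), 14 above 0 and a median of 0.22. Its summed level was 20139 against 22188 CPM in MerTK KO P1 MI, 25076 against 20161 CPM in WT 8 week MI and 24109 against 13834 CPM in WT 8 week sham. Plac8 was at 1160 against 2315 CPM in MerTK KO P1 MI, 249 against 1216 CPM in WT 8 week MI and 393 against 1456 CPM in WT 8 week sham (−1.74 ± 0.26, adjusted p = 0.0164, 0.0838 without WT 8 week sham and 0.131 without WT 8 week MI). Ly6c2, the surface antigen of classical monocytes, was at 87.6 against 146 CPM, 95.8 against 508 CPM and 61.3 against 273 CPM (−1.72 ± 0.32, adjusted p = 0.0389, 0.201 without WT 8 week sham and 0.188 without WT 8 week MI). Treml4, a receptor of non-classical monocytes, was at 25.4 against 71.1 CPM, 2.40 against 22.8 CPM and 7.22 against 91.6 CPM (−2.14 ± 0.38, adjusted p = 0.0329, 0.107 without WT 8 week sham and 0.0922 without WT 8 week MI). Every member value of Plac8, Ly6c2 and Treml4 was below the Arg1-zero value of its library. Eno3 (−1.97 ± 0.22, adjusted p = 0.00602, and 0.0690 without WT 8 week sham), Ace, Ear2 (−2.08 ± 0.28, adjusted p = 0.0101) and Gm9733 (−2.26 ± 0.42, adjusted p = 0.0396, 0.247 without WT 8 week sham and 0.198 without WT 8 week MI) fell as well. Ccr2, the receptor that brings classical monocytes into tissue, was at 211 against 461 CPM in MerTK KO P1 MI, 266 against 493 CPM in WT 8 week MI and 357 against 343 CPM in WT 8 week sham and was not called (−0.68 ± 0.20, adjusted p = 0.140). The summed classical and non-classical marker lists were both higher in Arg1-zero cells of each library, and the part of a different cell mixture in the other differences was not tested.

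Antigen presentation and interferon genes were lower. Of 12 tested MHC class II genes, 3 fell and 9 were lower in all 3 libraries, as were 16.7% of all genes tested, with a median of −0.98. Cd74, the invariant chain, was at 712 against 1233 CPM in MerTK KO P1 MI, 3162 against 11114 CPM in WT 8 week MI and 7183 against 13401 CPM in WT 8 week sham (−1.20 ± 0.22, adjusted p = 0.0357, 0.0846 without WT 8 week sham and 0.331 without WT 8 week MI). H2-Ab1 fell by 1.21 on the log2 scale (adjusted p = 0.0483, 0.123 without WT 8 week sham and 0.279 without WT 8 week MI), while H2-Aa narrowly missed the threshold (−1.19 ± 0.26, adjusted p = 0.0590). Markers of dendritic cells, which also carry these transcripts, summed to 13.3 against 12.5 CPM, 9.58 against 66.4 CPM and 159 against 372 CPM in members and Arg1-zero cells of MerTK KO P1 MI, WT 8 week MI and WT 8 week sham, and their part was not tested. All 24 tested interferon response genes had a log2 fold change below 0, with a median of −0.96, and 19 were lower in all 3 libraries. Those called were 3, the antiviral genes Rsad2 (−1.88 ± 0.25, adjusted p = 0.0101) and Slfn5 (−1.34 ± 0.22, adjusted p = 0.0224) and the membrane protein Ms4a4c (−1.71 ± 0.22, adjusted p = 0.00947). Rsad2 was at 12.7 against 44.2 CPM in MerTK KO P1 MI, 16.8 against 70.2 CPM in WT 8 week MI and 5.41 against 21.6 CPM in WT 8 week sham. These levels rested on 21, 7 and 3 UMIs in members and 177, 37 and 209 in Arg1-zero cells. The highest Arg1-zero cell held 42.4%, 32.4% and 10.5% of the Arg1-zero UMIs in the same libraries.

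The promoters of Rsad2 and Slfn5, called lower, and of Saa3, called higher, are shown because each holds the letters of the interferon-stimulated response element. They are the 250 bases before the gene's start, from RefSeq on GRCm38.p6, 5′ to 3′ on the gene's strand, with GAAA, any 2 bases and GAAA, or the reverse complement, in capitals.
Rsad2, chr12:26456453-26456702, minus strand: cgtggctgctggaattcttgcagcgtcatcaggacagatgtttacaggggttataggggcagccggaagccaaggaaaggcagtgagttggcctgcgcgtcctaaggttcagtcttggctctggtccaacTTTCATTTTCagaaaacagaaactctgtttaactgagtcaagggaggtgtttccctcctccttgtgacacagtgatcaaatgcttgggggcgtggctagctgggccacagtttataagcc
Slfn5, chr11:82951852-82952101, plus strand: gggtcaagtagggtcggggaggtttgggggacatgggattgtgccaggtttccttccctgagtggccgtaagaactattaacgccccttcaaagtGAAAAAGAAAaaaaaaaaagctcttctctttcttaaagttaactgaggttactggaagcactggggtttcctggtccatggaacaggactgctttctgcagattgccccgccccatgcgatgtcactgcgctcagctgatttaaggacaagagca
Saa3, chr7:46715677-46715926, minus strand: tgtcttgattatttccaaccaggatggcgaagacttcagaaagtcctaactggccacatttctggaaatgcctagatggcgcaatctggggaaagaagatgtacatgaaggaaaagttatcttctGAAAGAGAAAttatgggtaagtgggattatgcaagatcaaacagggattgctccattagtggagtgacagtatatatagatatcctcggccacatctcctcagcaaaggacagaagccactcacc
These letters, searched on both strands, were found in 6 of the 25 genes called lower that had a promoter in the table, in 4 of 49 called higher, in 3.64% of the tested genes with a promoter and in 3.46% of all 27025 genes of the table. The other genes called lower with a match were Clec4b1, Dpp4, I830077J02Rik and Rnase6. The AP-1 letters TGANTCA were found in 8 of 49 genes called higher, 3 of 25 called lower and 5.63% of tested genes. The C/EBP letters TTGCNNAA were found in 9 of 49, 5 of 25 and 9.32%, and the hypoxia response core ACGTG in 15 of 49, 3 of 25 and 27.2%. The STAT6 spacing, TTC and GAA with any 4 bases between them, was found in 3 of 49, 1 of 25 and 5.61%. A match is a run of letters and not a bound site.

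Immunoglobulin genes were among the largest falls and rested partly on single cells. Called genes whose direction was not the same in every library included Jchain (−6.03) and the haemoglobin genes Hba-a2 (−3.62) and Hba-a1 (−3.51). Igkc, the kappa light chain, had 0 UMIs in members and 35 in Arg1-zero cells of MerTK KO P1 MI, and was at 201 against 6208 CPM in WT 8 week MI and 458 against 2529 CPM in WT 8 week sham (−3.80 ± 0.47, adjusted p = 0.00856). One Arg1-zero cell held 95.3% of the Igkc UMIs of Arg1-zero cells in WT 8 week MI, and the same share was 91.2% for Ighm, the mu heavy chain (−3.36 ± 0.48, adjusted p = 0.0134). In WT 8 week sham these shares were 39.0% and 55.6%. There, 410 of 930 Arg1-zero cells held an Igkc UMI and 596 an Ighm UMI. With the highest cell of each gene left out, Igkc was at −1.50 (adjusted p = 0.0546) and no longer called, while Ighm was at −1.55 (adjusted p = 0.0197). Iglc3, a lambda chain (−2.37 ± 0.33, adjusted p = 0.0122), was at −1.38 (adjusted p = 0.0742) in that fit. B cell markers summed to 19.3 against 55.6 CPM, 91.0 against 2128 CPM and 525 against 1249 CPM in members and Arg1-zero cells of the 3 libraries.

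Few genes of the cell cycle, lysosome and alternative activation lists were called. Of 18 tested genes of S phase and mitosis none was called, with a median of −0.49, and Mki67, a marker of cycling cells, was at 30.2 against 31.7 CPM in MerTK KO P1 MI, 12 against 1.90 CPM in WT 8 week MI and 61.3 against 58.7 CPM in WT 8 week sham (0.05 ± 0.26, adjusted p = 0.976). Of 30 lysosome and lipid handling genes only Mmp12 was called. Among 12 tested genes of alternative activation, the interleukin 4 programme to which Arg1 belongs, Ccl24 and Tgm2 rose and Ear2 fell. Mrc1, the mannose receptor of that programme, was at 4.23 against 5.99 CPM, 69.5 against 68.3 CPM and 32.5 against 15.7 CPM (0.26 ± 0.30, adjusted p = 0.765). Retnla did not pass the filter, with 2 UMIs in members and 1193 in Arg1-zero cells of WT 8 week sham and 0 in both cell sets of the other 2 libraries. The 1193 UMIs were in 13 of 930 Arg1-zero cells, with 32.9% of them in 1 cell. A Retnla UMI was found in 1 of 49 members there, so the share of cells that carried it was not lower in members.

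Members differed among libraries in genes that are often used with Arg1. Spp1 (osteopontin, a secreted phosphoprotein) had 335 against 243 CPM in MerTK KO P1 MI, 15582 against 6828 CPM in WT 8 week MI and 2928 against 47.8 CPM in WT 8 week sham. It was higher in members of each library but by unequal amounts and was not called (2.20 ± 0.87, adjusted p = 0.288, and 2.48e-04 without MerTK KO P1 MI). At least 2 Spp1 UMIs were found in 17.9%, 82.8% and 44.9% of members of these libraries, and at least 2 Chil3 UMIs in 1.03%, 49.0% and 14.3%. Both were found in 1 of 195, 78 of 198 and 6 of 49 members. At least 2 Fn1 UMIs were found in 89.7%, 81.8% and 85.7%, so among Spp1, Chil3 and Fn1 this share differed least for Fn1. These shares were not taken at equal depth. Thinned to 1000 UMIs, 64.6%, 83.3% and 77.1% of members held at least 1 Fn1 UMI. Hmox1, heme oxygenase 1, was at 558 against 144 CPM, 1481 against 609 CPM and 48.7 against 93.4 CPM (0.93 ± 0.47, adjusted p = 0.415, and 0.0208 without WT 8 week sham), and Thbs1, thrombospondin 1, at 555 against 359 CPM, 2712 against 882 CPM and 990 against 103 CPM (1.79 ± 0.37, adjusted p = 0.0530, and 1.04e-06 without MerTK KO P1 MI).

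Several of the called genes were also carried by Arg1-positive cells outside the C1q and Prg4 limits. The WT 8 week sham library held 526 Lyz2-positive cells with 2 or more Arg1 UMIs that failed the limit on Prg4 and Alox15. Slc7a2 was at 263 CPM in members and 274 CPM in these cells, Marco at 106 and 119 CPM, Ltc4s at 593 and 1002 CPM and Fn1 at 5572 and 8843 CPM, while Arg1-zero cells were at 1.86, 0.621, 7.14 and 211 CPM. Saa3 was at 480 CPM in members and 6275 CPM in these cells. In WT 8 week MI, where 59 cells failed that limit, Slc7a2 was at 76.7 and 271 CPM, Ltc4s at 846 and 1471 CPM and Fn1 at 3776 and 7324 CPM. Prg4 itself was at 25.3 CPM in members, 1481 CPM in the cells that failed the limit and 2.17 CPM in Arg1-zero cells of WT 8 week sham. Only 3 Arg1-positive cells of MerTK KO P1 MI failed it. Of that library, the members and the 200 cells that failed only the C1q limit had Marco at 1336 and 2484 CPM, Saa3 at 17443 and 23727 CPM and Slc7a2 at 18.7 and 2.45 CPM.

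Members of WT 8 week MI and WT 8 week sham were set side by side as ratios without a test, since each condition had 1 library. Of 3234 genes with at least 50 CPM in 1 of the 2, 528 (16.3%) were at least 2-fold higher after MI and 847 (26.2%) at least 2-fold lower. Of these, 430 and 560 were also 2-fold apart in the same direction in Arg1-zero cells. The shares of all 3234 genes that were 2-fold apart in Arg1-zero cells were not counted, so this overlap lacks a background. The monocyte-attracting chemokine Ccl7 had 2511 CPM after MI and 25.3 CPM after sham (log2 6.59, counting interval 5.88 to 7.51), and Ccl2 had 2180 and 54.1 CPM (5.31, 4.81 to 5.91). Cxcl3 had 374 and 1.80 CPM in members, on 156 UMIs and 1, but 79.7 and 18 CPM in Arg1-zero cells. Ppbp was at least 44.7-fold and Ccl12 at least 23.0-fold higher after MI, both with 0 UMIs in sham members and taken against 3 counts per library. Nutf2, Fcrls and Dynlt1c, with 0 UMIs in sham members too, were at least 19.0-fold, 13.7-fold and 12.8-fold higher. In Arg1-zero cells the log2 ratios of MI over sham were 7.19 for Ccl7, 4.73 for Ccl2, 10.1 for Ppbp and 8.97 for Ccl12. Those of Nutf2, Fcrls and Dynlt1c were 6.06, 3.76 and 4.68, so the rises of these genes were not particular to members.

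Genes with higher levels in sham members included transcripts of other cells. The cytotoxic granule genes Gzma and Prf1 were at least 101-fold and 11-fold lower after MI, with 0 UMIs there and 403 and 44 UMIs in sham members. Of the 403 Gzma UMIs, 43.9% were in 1 member, and of 125 UMIs of Calca, a neuropeptide gene, 96.0% were in 1 member. Mb, the myoglobin of heart muscle, and Nrgn were at least 9.29-fold and 15.1-fold lower after MI. At least 3 UMIs of other lineages' markers were found in 0.505% of MI members and 34.7% of sham members. That limit was not scaled to depth, and median depths were 1997.5 and 10857 UMIs. Summed fibroblast and red cell markers were higher in MI members, at 410 against 265 CPM and 40.7 against 3.61 CPM. Those of T and natural killer cells, B cells, endothelium and heart muscle were lower. The part of other lineages in these ratios was not tested. Hist1h1b, a histone gene of dividing cells, had 2.40 CPM after MI and 233 CPM after sham, Lars2 4.79 and 415 CPM, and the transcript Gm42418 218 and 28839 CPM. In Arg1-zero cells Gm42418 was at 199 and 22744 CPM, so it set the 2 libraries apart in both cell sets. Hmox1 had 1481 CPM after MI and 48.7 CPM after sham in members (log2 4.90, 4.37 to 5.54). Slc7a2 had 76.7 and 263 CPM (−1.76, −2.38 to −1.22).

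**Figure D5:**
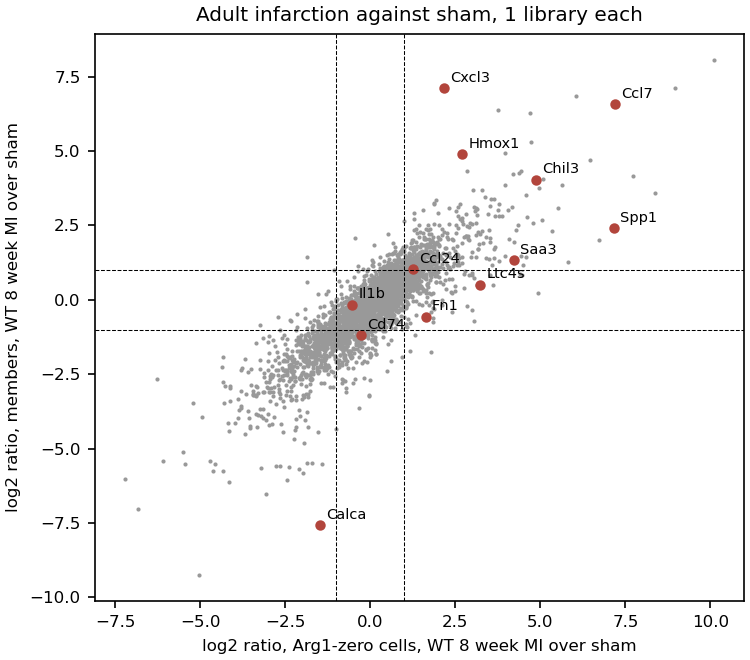
Log2 ratio of WT 8 week MI over WT 8 week sham for 3234 genes, in Arg1-zero cells (horizontal axis) and members (vertical axis), with dashed lines at 2-fold. Most genes lie along the diagonal. Cxcl3 lies above it and Calca, with 96.0% of its sham UMIs in 1 member, below it.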

How the data were processed

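Single-cell droplet libraries were made from digested hearts, per the labels' protocols. The deposited files hold raw UMI counts for each gene and cell, which the authors obtained with Cell Ranger from alignments to GRCm38 (mm10), per the submitters' processing notes. Cells were kept with 500 or more UMIs, 300 or more genes and no more than 15% mitochondrial UMIs, 40158 of 44318. No doublet caller was run. Leaving out cells with markers of other lineages, or the deepest 5% of gated cells, served as alternatives, beside other limits, scalings and filters.

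Counts were summed per library and cell set and tested with edgeR 4.0.16 in R 4.3.3 (TMM scaling, filterByExpr, glmQLFit and glmQLFTest, library as block, the 10 rule genes left out), with Benjamini-Hochberg adjustment over all 7322 genes. A standard error is the size of the log2 fold change over the root of its F statistic. Nothing states that the libraries came from separate animals, so p-values measure only the spread between these libraries, which may be technical. Ratios between conditions carry 0.5 added counts and exact 95% counting intervals. The edgeR fit was tried on simulated counts with known changes. It called 28 of 100 genes changed 2-fold and 92 of 100 changed 4-fold, with 4 false calls among 7272 genes tested. A gene that was not called may thus still differ by 2-fold. DESeq2 1.42.0 was an alternative.

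The members and gene lists were chosen with earlier results of these data known. The genes named were the 10 largest and 10 smallest log2 fold changes among called genes that reached 50 CPM in either cell set and kept 1 direction in every library, 20 genes always named, called genes of the lists and, between conditions, the 8 largest and 8 smallest ratios. Of the 20 named by size, 12 had a promoter in RefSeq's table. One gene that the rule names is not reported here.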

Additional observations from a re-analysis of the deposited data

Results flagged for a closer look

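Members also occurred in 3 libraries that held too few of them to enter the test of members against Arg1-zero cells. These were 11 cells in MerTK KO P1 sham, 3 cells in the first WT P1 MI library and 19 cells in the second. Of the 61 genes called higher in the other libraries, 56 of the 60 with a UMI lay above 0 in the 11 cells of MerTK KO P1 sham, beside 43.2% of all tested genes, and 35 of 40 called lower lay below 0, beside 56.8%. In the 19 cells of the second WT P1 MI library, 52 of 61 lay above 0, beside 57.3% of all tested genes, and 31 of 42 below 0, beside 42.7%. In the 3 cells of the first WT P1 MI library, 37 of 44 lay above 0, beside 63.5%, and 14 of 32 below 0, beside 36.5%. The ratios carry 0.5 added counts, so with few member UMIs a gene absent from members can lie above 0. In MerTK KO P1 sham, Fcna was at 2.67 on the log2 scale with 0 against 0.392 CPM. Ltc4s was at 0.50 with 0 against 15.8 CPM in the first WT P1 MI library. These counts of genes therefore cannot decide whether the called differences recur there. Marco had 0 UMIs in the 19 members of the second WT P1 MI library, whereas Slc7a2 was at 39.3 CPM in members against 2.40 CPM in Arg1-zero cells there.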

How the results depend on the processing

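The 103 calls between members and Arg1-zero cells became 12 without cells holding other lineages' markers (10 of the 103 among them), 59 without TMM scaling, 374 without the filter on low counts, 28 with libraries of 50 or more cells of each set only and 0 by edgeR without the library block, where 135 genes had an unadjusted p below 0.05. Leaving out 1 library gave 28 (without WT 8 week sham), 33 (without WT 8 week MI) and 315 (without MerTK KO P1 MI). The 35 called genes of the fixed lists became 7, 22, 85, 16 and 0 under the first 5 of these settings in the same order, and 16, 13 and 85 without WT 8 week sham, WT 8 week MI and MerTK KO P1 MI. In 12 other settings the count of calls was between 70 and 130; DESeq2 gave 114, 82 of them among the 103. Over 35 named genes and 19 settings, 501 of 653 values kept direction and side of the threshold, 115 lost the call, 23 gained it and 14 reversed. None of the reversed genes was called in the reported fit. Chil3 was at 1.29 with at least 1 Arg1 UMI, 0.0012 with the limits scaled to each cell's depth and 0.21 against depth-matched cells. Mki67 was at −0.18 with C1q under 20 UMIs, −0.046 at a mitochondrial share of at most 10%, −0.45 against depth-matched cells, −0.36 with the highest cell left out, a setting added after the data were seen, and −0.0047 with no filter. Without cells of other lineages' markers Il1b was at −0.0053 and Mrc1 at −0.047, and with libraries of 50 or more cells Mrc1 was at −0.12. Leaving out 1 library gave −0.24 to 0.23 for Arg2, −0.12 to 0.43 for Mrc1 and −0.076 to 0.20 for Mki67. Slc7a2, Marco and Hpgd lost their calls without the library block and kept them in each other setting that tested them. Marco was not tested with the limits scaled to depth, and Hpgd was not tested without WT 8 week sham. Thinned to 1500 and 1000 UMIs, gated cells with an Arg1 UMI were 19.2% and 16.7% in MerTK KO P1 MI, 3.38% and 4.28% in MerTK KO P1 sham, 3.10% and 2.81% in the second WT P1 MI library, 49.8% and 42.1% in WT 8 week MI, and 3.84% and 3.29% in WT 8 week sham. Without the 50 CPM minimum, 6773 genes in place of 1375 were 2-fold apart between members of WT 8 week MI and sham. The cause of these changes was not tested. No paired analysis was possible because, between conditions, only 1 group has more than 1 library, so the groups share fewer than 2 replicate numbers. Members and Arg1-zero cells were paired by library in the reported fit. DESeq2 and leaving out each WT P1 MI library were not run between conditions, since no test was made there. Depth limits what WT 8 week MI members can show, with a median of 1997.5 UMIs.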
